A study of Arabidopsis thaliana with 4 samples.

Results

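Nuclear genes for photosystem subunits and for the chlorophyll-binding antenna were followed by RNA-seq in whole seedlings of Arabidopsis thaliana (wild type, Col-0). Seedlings were taken 2 or 6 days after germination (2 dpg and 6 dpg), and each age had 2 libraries. Seeds were kept cold at 4 °C in the dark for 2 days, and seedlings then grew at 22 °C under a 12-h photoperiod on plates of 1/2 Murashige and Skoog medium with 0.5% sucrose. All groups shared this genotype and these conditions and differed in age alone, as far as the labels say. The members were the genes whose description in the deposited table contains "chlorophyll a-b binding" or "photosystem", and 46 of the 26784 genes in the table met this rule. By their descriptions 20 were antenna genes, 12 belonged to photosystem I and 14 to photosystem II.

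The light reactions of photosynthesis run in the thylakoid membranes of the chloroplast. Photosystem II takes electrons from water, photosystem I passes them on to ferredoxin, and both are fed with excitation energy by antenna proteins that bind chlorophyll a and b. The antenna of photosystem II consists of trimers of light-harvesting complex II (LHCII, encoded by LHCB1, LHCB2 and LHCB3 genes) and of the monomeric proteins CP29, CP26 and CP24 (LHCB4, LHCB5 and LHCB6). The antenna of photosystem I, LHCI, is a belt of LHCA proteins. The reaction centre proteins themselves are encoded in the plastid, and plastid genes were not analysed here, nor were nuclear genes beyond position 3070933 of chromosome 5. No LHCB3 gene was among the members, and each family is described only as far as its genes were in the data. The oxygen-evolving proteins PSBO, PSBP and PSBQ carry other descriptions and are therefore no members.

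Messenger RNA of these genes was lower at 6 dpg than at 2 dpg in nearly every case, with the lowest class median for the antenna. Of 46 members 44 passed the filter on low counts. Of these 36 fell and 1 rose at a Benjamini-Hochberg adjusted p under 0.05 in edgeR's quasi-likelihood test over 16160 genes, where 56.6% of all tested genes were called, 28.4% lower and 28.3% higher. The fall was at least 2-fold for 17 members, against 12.5% of all tested genes. In 40 of the 44 both 6 dpg libraries lay below both 2 dpg libraries, which held for 40.2% of all tested genes. In 1 both lay above, which held for 40.4%. The members were chosen with earlier results of these data known, so these counts describe them and are not independent evidence.

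The class medians were unequal, and the difference between classes was not tested. Among antenna genes 17 of 20 fell and 1 rose, at a median log2 fold change (6 dpg over 2 dpg) of -1.08. Of all tested genes 28.4% were called lower and 28.3% higher. All 12 photosystem I genes fell, with a median of -0.74 and a range from -1.18 to -0.46. Of the 12 photosystem II genes tested, 7 fell and none rose, at a median of -0.47. This class also holds assembly factors, loci placed by a family name and a pseudogene. Its 5 small subunits alone had a median of -0.72, against -0.74 for the 11 photosystem I subunits. The photosystem II median was -0.71 without 6 dpg replicate 1 and -0.19 with libraries scaled on ribosomal protein genes, and that scaling gave -0.46 for photosystem I and -0.80 for the antenna. The median of all tested genes was -0.00111 on the same scale. A fold change in RNA from whole seedlings cannot tell fewer cells of a type from less RNA per cell.

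**Figure D1:**
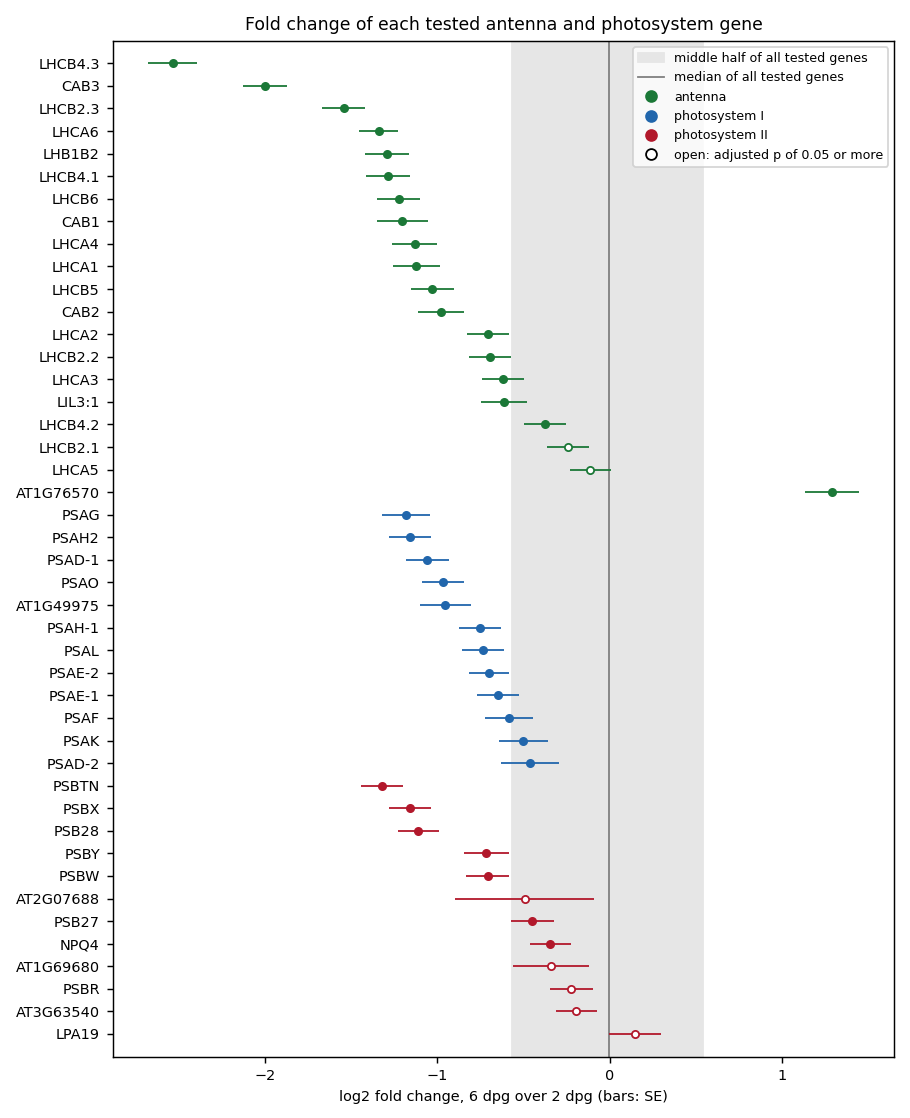
Log2 fold change of the 44 tested members, 6 dpg over 2 dpg, with the SE of the edgeR fit (2 libraries per age), ordered within antenna (green), photosystem I (blue) and photosystem II (red). Filled points passed an adjusted p of 0.05. All but AT1G76570 and LPA19 lie below 0, and the antenna class reaches furthest down, to -2.54 for LHCB4.3.

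The library totals behind the deposited FPKM were 18330153 to 26570983 reads, and the deviations of same-numbered libraries from their age means correlated at -0.0265, so replicate numbers were not treated as pairs. Separate plantings for the libraries of 1 age are not stated in the labels. The p-values thus reflect how much these libraries vary, and that variation may be technical. Each direction is given against the typical gene of the table. Libraries were also scaled on cytosolic ribosomal protein genes. In the main analysis 74 of 168 of these had fallen and 9 had risen, against 28.4% and 28.3% of all tested genes. Their summed level was 35907 and 27795 CPM in the 2 dpg libraries, which thus differed, and 26020 and 25414 CPM in the 6 dpg libraries. With this scaling the median of all genes moved to 0.29. The calls over all genes went from 4568 higher and 4585 lower to 5268 higher and 2175 lower. Under that scaling 26 members fell and 1 rose.

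Genes for the photosystems and antenna made up a large part of each library. Their reads were 11.6% and 12.0% of the total in the 2 dpg libraries and 6.82% and 6.78% in the 6 dpg libraries. Antenna genes alone took 9.29% and 9.39% at 2 dpg and 5.02% and 5.09% at 6 dpg. In CPM (read counts scaled to library size) the summed level of the antenna class was 99110 ± 2821 (SD, n = 2) at 2 dpg and 47642 ± 172 at 6 dpg, a 2.08-fold difference. The summed photosystem I level went from 14989 ± 1230 to 8669 ± 456 CPM, 1.73-fold, and that of photosystem II from 11512 ± 41.8 to 7732 ± 394 CPM, 1.49-fold. In each class the libraries of the 2 ages did not overlap. The antenna values leave out LHB1B1, an LHCB1 gene whose description lies outside the rule. It had 5416 ± 117 CPM at 2 dpg and 331 ± 2.91 CPM at 6 dpg.

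Set against the photosystems per length of transcript (the length column of the deposited table), the antenna was smaller at 6 dpg. The ratio of summed antenna to summed photosystem I level was 5.07 and 4.34 in the 2 dpg libraries and 3.74 and 4.06 in the 6 dpg libraries. The ratio of antenna to photosystem II was 5.98 and 5.77 at 2 dpg and 4.12 and 4.45 at 6 dpg. Photosystem I over photosystem II was 1.26 ± 0.106 (SD, n = 2) at 2 dpg, and 1.104 and 1.097 in the 6 dpg libraries. All 3 ratios were lower in both 6 dpg libraries than in both 2 dpg libraries. LHB1B1 is left out of the antenna here too. The ratios were not tested; an exact permutation test of 2 libraries against 2 cannot give a two-sided p below 0.333.

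**Figure D2:**
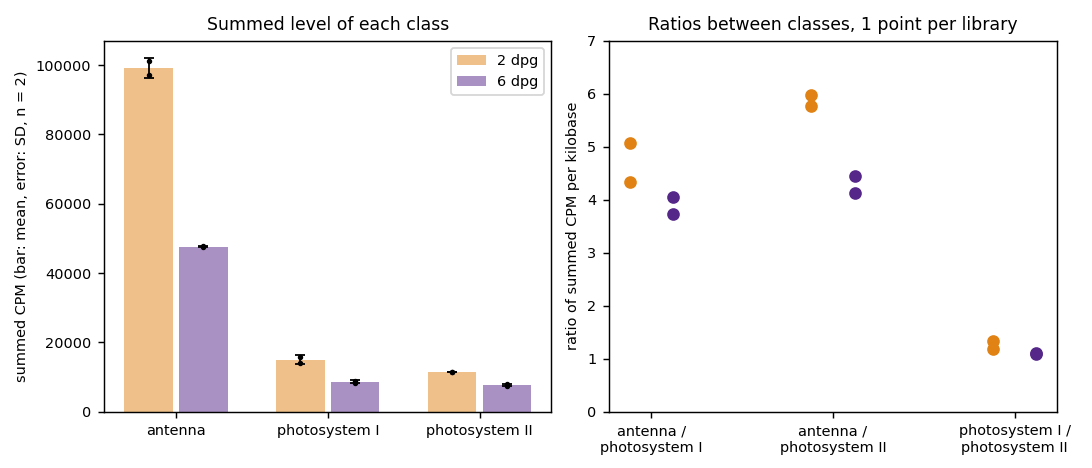
Left, summed level of each class in CPM, with bars for the mean, error bars for the SD (n = 2) and a black point per library; orange is 2 dpg and purple 6 dpg. Right, ratios between the summed levels per kilobase, a point per library, which are lower in both 6 dpg libraries (antenna over photosystem II 4.12 and 4.45, against 5.98 and 5.77).

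LHCII, the most abundant antenna complex of the thylakoid, is encoded by multigene families. CAB1, CAB2 and CAB3, which encode LHCB1 proteins, lie side by side on chromosome 1, at 10478005 to 10479048 on the plus strand, at 10474784 to 10475959 on the minus strand and at 10472280 to 10473299 on the minus strand in the deposited table, which names no genome build. Their coding sequences in the RefSeq annotation of TAIR10.1 have 804 bases each and differ at 29 to 35 positions. Reads from stretches they share can be split among them or lost, so the values of single copies are uncertain. The sequence upstream differs between the copies. The 250 bases before the RefSeq gene start are shown because the 3 neighbours changed by different amounts. They are read 5′ to 3′ on the gene's strand from TAIR10.1, with capitals for matches to the motifs counted further on. The starts in the deposited table lie 120, 10 and 203 bases further into the gene for CAB1, CAB2 and CAB3.
CAB1 (chr1:10477635-10477884, plus strand): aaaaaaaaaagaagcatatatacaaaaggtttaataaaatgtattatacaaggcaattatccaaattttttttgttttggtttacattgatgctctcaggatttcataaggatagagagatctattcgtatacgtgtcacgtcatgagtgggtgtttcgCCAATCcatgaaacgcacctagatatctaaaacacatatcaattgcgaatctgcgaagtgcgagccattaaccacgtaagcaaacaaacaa
CAB2 (chr1:10475970-10476219, minus strand): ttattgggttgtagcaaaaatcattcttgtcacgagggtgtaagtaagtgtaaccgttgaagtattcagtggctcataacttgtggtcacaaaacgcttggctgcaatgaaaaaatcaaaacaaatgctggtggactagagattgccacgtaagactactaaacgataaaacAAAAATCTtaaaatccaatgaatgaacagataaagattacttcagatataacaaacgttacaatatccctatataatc
CAB3 (chr1:10473503-10473752, minus strand): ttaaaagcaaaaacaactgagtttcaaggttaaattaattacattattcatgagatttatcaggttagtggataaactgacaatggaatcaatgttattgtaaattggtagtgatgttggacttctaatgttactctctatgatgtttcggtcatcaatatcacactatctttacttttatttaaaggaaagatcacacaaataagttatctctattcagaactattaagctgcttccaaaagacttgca

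CAB1 was the most abundant member at both ages, and at 2 dpg the most abundant gene of the whole table per length. Its level was 29228 and 24841 CPM in the 2 dpg libraries and 11410 and 12061 CPM in the 6 dpg libraries. Its change (log2 fold change -1.204 ± 0.147, SE; edgeR adjusted p = 0.000202) was the middle one of the LHCII genes. CAB2 stood at 14592 and 13584 CPM, then at 7203 and 7092 CPM, a log2 fold change of -0.98 ± 0.13. CAB3, with 6623 and 6519 CPM at 2 dpg, was down to 1626 and 1655 CPM at 6 dpg, the deepest fall of the LHCII members (log2 fold change -2.002 ± 0.128, edgeR adjusted p = 1.08e-05). The share of CAB3 in the summed level per length of the 3 neighbours was 13.8% and 15.3% at 2 dpg and 8.55% and 8.45% at 6 dpg, and the share of CAB2 rose from 26.5% and 27.7% to 32.8% and 31.4%. CAB1 kept an overlapping share, 59.7% and 57.0% against 58.6% and 60.2%.

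LHB1B2, an LHCB1 gene on chromosome 2, fell from 9080 ± 302 to 3706 ± 49.5 CPM. Its neighbour LHB1B1 (AT2G34430) is described as subunit B1 of the chlorophyll-protein complex II and so lies outside the rule. It was picked out after its values were seen, because the LHCB1 total depends on it. LHB1B1 had 130179 and 109408 reads in the 2 dpg libraries and 7908 and 6510 reads in the 6 dpg libraries. In CPM it was 5333 and 5499 at 2 dpg and 329 and 333 at 6 dpg, 16.4-fold lower (log2 fold change -4.03 ± 0.14, edgeR adjusted p = 2.29e-06). No member changed as much. With it counted in, its share of the 5 LHCB1 copies per length went from 8.72% and 9.73% to 1.45% and 1.43%. The coding sequences of LHB1B1 and LHB1B2 are identical at 92.5% of the aligned bases, and those of LHB1B1 and CAB1 at 87.0%. Whether reads move between copies at either age was not tested.

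The LHCB2 genes, whose products join the same trimers and are phosphorylated in state transitions, changed unevenly. LHCB2.3 fell from 1145 and 1309 CPM to 429 and 413 CPM (log2 fold change -1.54 ± 0.13). LHCB2.2 was at 3822 and 3823 CPM at 2 dpg and at 2400 and 2331 CPM at 6 dpg, a smaller fall of 0.69 ± 0.12 on the log2 scale. For LHCB2.1 the values were 3939 and 3802 CPM, then 3280 and 3270 CPM, without passing the test (log2 fold change -0.24 ± 0.12, edgeR adjusted p = 0.122). LHCB2.1 was called lower without 2 dpg replicate 2 (edgeR adjusted p = 0.0339), and its sign turned under ribosomal protein scaling (0.0474). Its share of the summed LHCB2 level was 42.7% and 40.9% at 2 dpg and 52.4% and 53.0% at 6 dpg, while that of LHCB2.3 went from 14.4% and 16.4% to 7.96% and 7.80%. Of the 7 LHCII members, 6 fell and 1 did not pass the test, against 28.4% of all tested genes called lower. For all 7, both 6 dpg libraries lay below both 2 dpg libraries, against 40.2% of all tested genes.

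**Figure D3:**
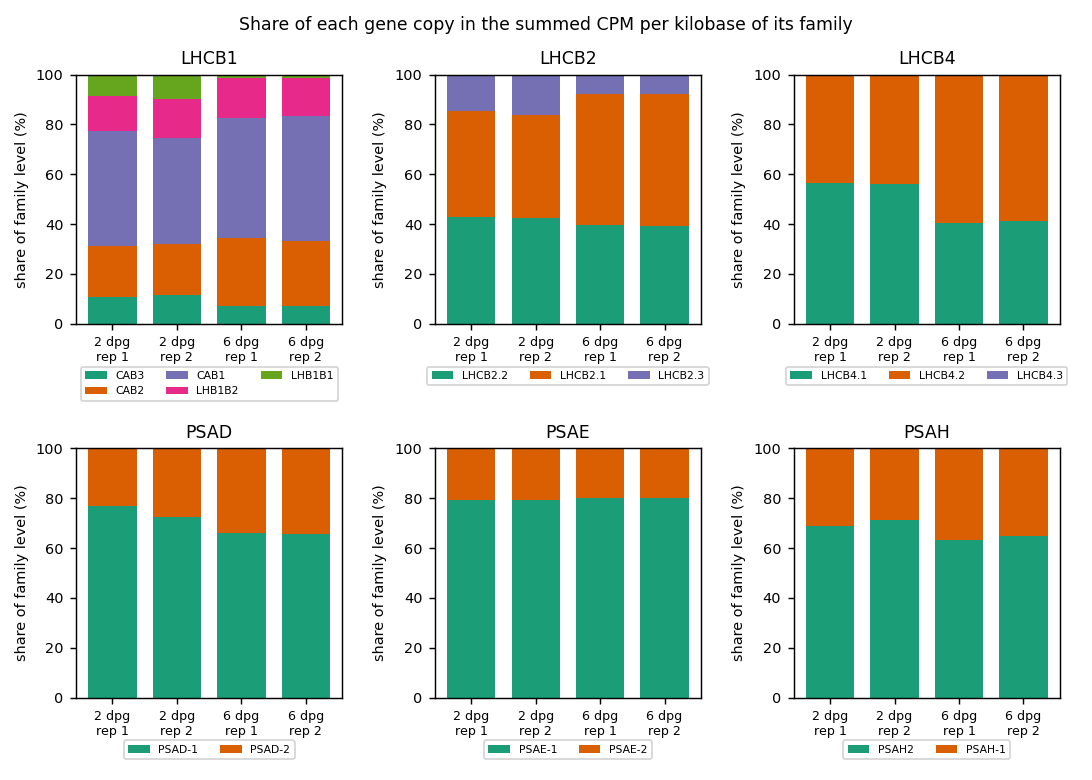
Share of each gene copy in the summed CPM per kilobase of its family, a stacked bar per library. For LHCB1 the drawing includes LHB1B1, which is outside the rule. The bars of the 2 ages differ for LHCB1, LHCB2, LHCB4, PSAD and PSAH, whereas PSAE1 stays between 79.4% and 80.2%; LHCB4.3, under 1%, is too thin to be seen.

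The minor antenna proteins sit between the LHCII trimers and the core of photosystem II. All 5 of their genes fell, against 28.4% of all tested genes called lower. CP29 has 3 genes, and these fell to different degrees. LHCB4.3, the rarest copy, had 52.1 and 52.0 CPM at 2 dpg and 8.03 and 9.98 CPM at 6 dpg, the largest change of all members (log2 fold change -2.54 ± 0.14, 5.80-fold, edgeR adjusted p = 5.81e-06). LHCB4.1 was at 4595 and 4312 CPM, then at 1787 and 1868 CPM (log2 fold change -1.29 ± 0.13). LHCB4.2, with 3428 and 3263 CPM and then 2584 and 2584 CPM, fell by only 0.37 ± 0.12 on the log2 scale. Its call (edgeR adjusted p = 0.0277) was lost under ribosomal protein scaling, with length-adjusted offsets, with a replicate block and without either 6 dpg library. Without either 6 dpg library its log2 fold change stayed at -0.37, and fewer genes were called over the whole set. At 2 dpg LHCB4.1 was the leading CP29 gene, with 56.3% and 55.9% of the summed level per length. At 6 dpg LHCB4.2 led with 59.6% and 58.5%. LHCB5 (CP26) fell from 5337 ± 149 to 2613 ± 21.0 CPM and LHCB6 (CP24) changed by -1.22 ± 0.12 in log2.

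The upstream windows of the 3 CP29 genes are shown in the same way, since the order of LHCB4.1 and LHCB4.2 was exchanged between the ages. LHCB4.1, LHCB4.2 and LHCB4.3 are on chromosomes 5, 3 and 2. Their starts in the deposited table lie 71, 118 and 25 bases further into the gene.
LHCB4.1 (chr5:208616-208865, plus strand): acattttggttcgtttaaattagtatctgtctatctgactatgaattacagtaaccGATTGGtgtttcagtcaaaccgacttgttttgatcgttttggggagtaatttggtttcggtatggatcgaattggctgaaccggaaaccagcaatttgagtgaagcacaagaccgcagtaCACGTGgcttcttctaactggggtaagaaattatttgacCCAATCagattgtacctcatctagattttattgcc
LHCB4.2 (chr3:2717307-2717556, plus strand): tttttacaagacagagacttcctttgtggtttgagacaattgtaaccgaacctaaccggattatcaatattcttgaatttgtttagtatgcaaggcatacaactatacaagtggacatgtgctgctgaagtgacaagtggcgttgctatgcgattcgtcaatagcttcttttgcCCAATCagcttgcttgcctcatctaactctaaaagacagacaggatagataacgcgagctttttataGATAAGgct
LHCB4.3 (chr2:16745378-16745627, plus strand): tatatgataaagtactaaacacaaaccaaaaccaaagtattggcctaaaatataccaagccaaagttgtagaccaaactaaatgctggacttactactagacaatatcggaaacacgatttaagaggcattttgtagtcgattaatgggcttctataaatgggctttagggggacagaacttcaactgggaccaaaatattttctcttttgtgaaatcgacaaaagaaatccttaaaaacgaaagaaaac

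The LHCI belt of photosystem I is built from LHCA1 to LHCA4, and LHCA5 and LHCA6 are rarer proteins that help to join photosystem I to the chloroplast NADH dehydrogenase-like complex. LHCA4 and LHCA1 fell 2.19-fold and 2.18-fold, from 4815 ± 387 to 2199 ± 7.09 CPM and from 3729 ± 421 to 1713 ± 87.0 CPM. LHCA2 and LHCA3 fell less, by 0.71 ± 0.12 and 0.62 ± 0.12 on the log2 scale. The call for LHCA3 was lost under ribosomal protein scaling and without either 6 dpg library. LHCA6 went from 196 and 201 CPM to 79.7 and 77.4 CPM (log2 fold change -1.34 ± 0.11). LHCA5, its partner, had 118 and 131 CPM at 2 dpg and 119 and 112 CPM at 6 dpg. These overlapped, and LHCA5 was not called (log2 fold change -0.11 ± 0.12, edgeR adjusted p = 0.444). The sign for LHCA5 turned under ribosomal protein scaling (0.16) and with length-adjusted offsets (0.0737).

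The remaining antenna genes are LIL3:1 and AT1G76570. LIL3:1 encodes a light-harvesting-like protein that acts in chlorophyll synthesis and fell from 176 ± 21.3 to 115 ± 11.4 CPM (call lost under ribosomal protein scaling and without 6 dpg replicate 2). AT1G76570, which RefSeq lists under the synonym LHCB7, was the 1 member that rose. It had 189 and 188 reads in the 2 dpg libraries and 544 and 376 reads in the 6 dpg libraries. Its level was 7.74 and 9.45 CPM at 2 dpg and 22.6 and 19.2 CPM at 6 dpg, 2.45-fold higher (log2 fold change 1.29 ± 0.16, edgeR adjusted p = 0.000185). This call was kept in all 13 alternative analyses.

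The nuclear subunits of photosystem I among the members fell within a narrow band. PSAD and PSAE form, on the stromal side, the docking site of ferredoxin, and each has 2 genes. PSAD1 fell from 1512 and 1698 CPM to 790 and 752 CPM (log2 fold change -1.06 ± 0.13). PSAD2 had 486 and 692 CPM at 2 dpg and 436 and 418 CPM at 6 dpg. Its smaller change (log2 fold change -0.46 ± 0.17, edgeR adjusted p = 0.0403) was -0.19 (edgeR adjusted p = 0.112) without 2 dpg replicate 2. The call was also lost without either 6 dpg library, under ribosomal protein scaling and with length-adjusted offsets. The share of PSAD1 in the pair was 76.9% and 72.4% at 2 dpg and 65.9% and 65.8% at 6 dpg. PSAE1 and PSAE2 fell by 0.65 ± 0.12 and 0.70 ± 0.12 on the log2 scale. Both calls were lost under ribosomal protein scaling, and that for PSAE1 also without 6 dpg replicate 2.

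PSAF binds plastocyanin on the lumen side, and PSAG and PSAK flank the core where antenna proteins attach. PSAG had the largest fall of the class, from 1494 and 1766 CPM to 767 and 672 CPM (log2 fold change -1.18 ± 0.14, edgeR adjusted p = 0.000167). PSAK, at 1606 and 1955 CPM and then at 1335 and 1184 CPM, had one of the smallest (-0.50 ± 0.14), and PSAF changed by -0.58 ± 0.14. The calls for PSAK and PSAF were lost under ribosomal protein scaling and without either 6 dpg library, and that for PSAK also with length-adjusted offsets. PSAH, PSAL and PSAO lie on the side where LHCII docks during state transitions. PSAH2 fell from 1052 and 1142 CPM to 509 and 474 CPM, a log2 fold change of -1.16 ± 0.12. PSAO, per length the most abundant of the class at 2 dpg, fell from 1750 and 1853 CPM to 944 and 897 CPM (-0.97 ± 0.12). PSAL and PSAH1 changed by -0.74 ± 0.12 and -0.75 ± 0.12, and 27.3% of the PSAH1 span is overlapped by another gene. AT1G49975, which the table places in photosystem I by location alone, fell from 44.3 ± 4.28 to 22.8 ± 3.65 CPM. In all 12 photosystem I genes both 6 dpg libraries lay below both 2 dpg libraries, which held for 40.2% of all tested genes. In 7 of the 12 the call was kept in all 13 alternatives.

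**Figure D4:**
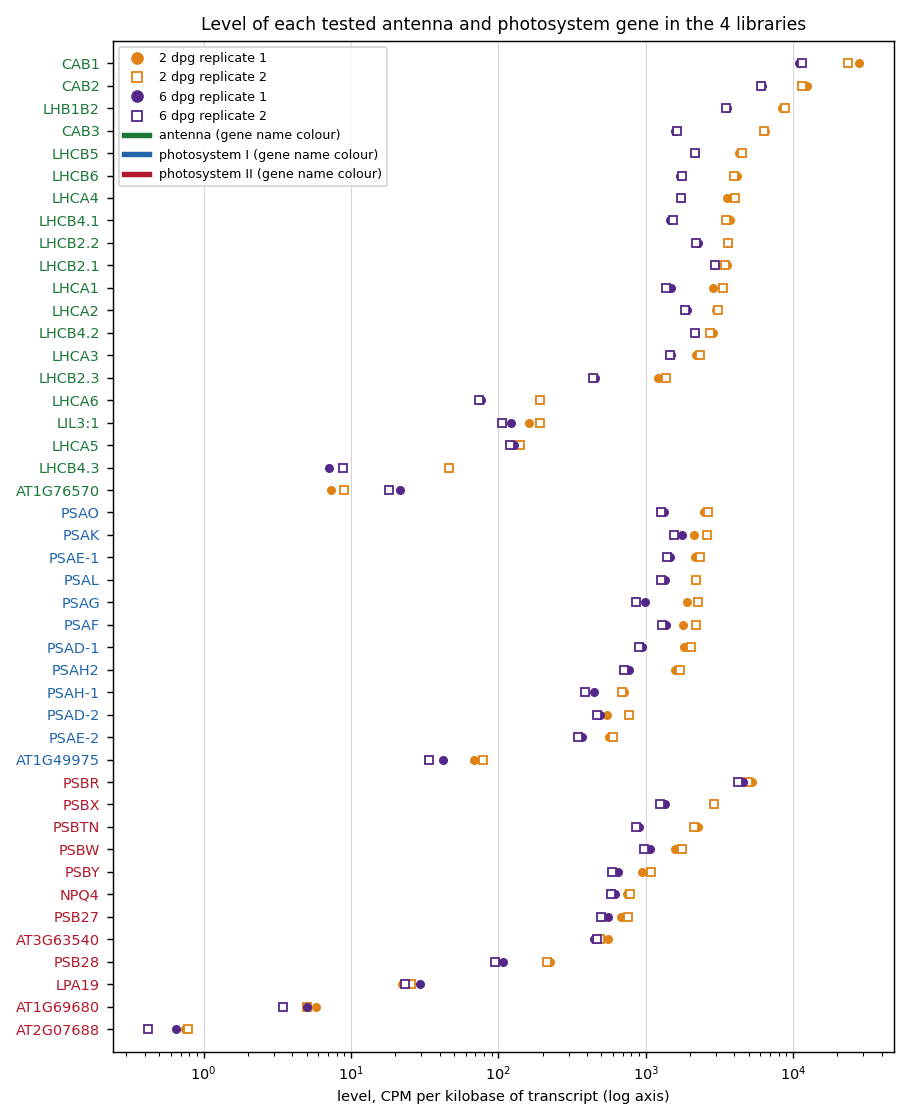
Level of the 44 tested members in CPM per kilobase of transcript on a log axis, with 1 symbol per library (orange 2 dpg, purple 6 dpg; filled circles replicate 1, open squares replicate 2). Gene names are green for antenna, blue for photosystem I and red for photosystem II. Levels span from under 1 for the pseudogene AT2G07688 to 25895 for CAB1 at 2 dpg, and the purple symbols lie to the left for all but a few genes.

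Of the 5 small subunits of photosystem II, 4 fell and 1 did not pass the test, against 28.4% of all tested genes called lower. PSBTN, a lumenal protein of low mass, fell from 1260 and 1168 CPM to 495 and 477 CPM (log2 fold change -1.32 ± 0.12, edgeR adjusted p = 4.74e-05). PSBX, a membrane-spanning subunit, fell from 1820 and 1828 CPM to 848 and 784 CPM (-1.16 ± 0.12). PSBY and PSBW fell by 0.72 ± 0.13 and 0.71 ± 0.13 on the log2 scale, from 1109 ± 109 to 675 ± 51.6 CPM for PSBY and from 1399 ± 107 to 857 ± 54.4 CPM for PSBW. PSBR, which helps to hold the oxygen-evolving proteins, was the most abundant of the class per length, at rank 5 of all members at 2 dpg and rank 3 at 6 dpg. It had 3800 and 3589 CPM, then 3281 and 3057 CPM, and did not pass the test (log2 fold change -0.22 ± 0.13, edgeR adjusted p = 0.161). PSBR was called lower without 2 dpg replicate 2 (edgeR adjusted p = 0.0428), and its sign turned under ribosomal protein scaling (0.0686) and with length-adjusted offsets (0.0670).

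Of 3 assembly and repair factors of photosystem II, 2 fell, against 28.4% of all tested genes. PSB28 fell from 199 and 190 CPM to 96.3 and 84.0 CPM (log2 fold change -1.11 ± 0.12). PSB27, which takes part in the repair of the complex, changed by -0.45 ± 0.12, a call lost under ribosomal protein scaling, with length-adjusted offsets and without either 6 dpg library. Its relative LPA19, required for processing of the D1 protein precursor, had 16.6 and 18.9 CPM at 2 dpg and 22.0 and 17.3 CPM at 6 dpg. These overlapped (log2 fold change 0.15 ± 0.15, edgeR adjusted p = 0.427). LPA19 was called higher with length-adjusted offsets (0.42, edgeR adjusted p = 0.0347), and its sign turned without 6 dpg replicate 1. NPQ4 encodes PSBS, the sensor protein of rapid energy dissipation, and went from 1164 ± 29.2 to 918 ± 37.4 CPM. Its call (log2 fold change -0.34 ± 0.12, edgeR adjusted p = 0.0336) was lost under ribosomal protein scaling, with a replicate block, without either 6 dpg library and, narrowly, with length-adjusted offsets.

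Another 4 loci are grouped with photosystem II only by a family name in the description. AT3G63540 had 327 ± 30.1 and 286 ± 9.46 CPM (edgeR adjusted p = 0.203). It was called lower without 2 dpg replicate 2 (edgeR adjusted p = 0.0321), and its sign turned under ribosomal protein scaling (0.11) and with length-adjusted offsets (0.16). AT1G69680 had 6.96 and 6.03 CPM and then 6.08 and 4.15 CPM (edgeR adjusted p = 0.213). The pseudogene AT2G07688, similar to a plastid gene, stayed under 1 CPM in all libraries. AT1G51400 and AT4G37230 had 1 to 3 reads per library and were removed by the filter. Neighbouring genes overlap 82.5% of the span of AT1G51400 and 37.3% of that of AT4G37230.

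The short motifs searched in the upstream windows were CACGTG (the G-box), GATAAG (the core of the I-box), CCAATC, AAAAATCT and AAATATCT (the core of the evening element). Each was searched on both strands, and a window counted once for every motif it held. Of 46 members 44 are protein-coding genes in the RefSeq annotation. These are not the 44 tested members. They include AT1G51400 and AT4G37230, which the filter removed, and leave out AT3G63540 and AT2G07688. In the 250 bases before the gene start CCAATC was found in 10 of 20 antenna genes, in 0 of 12 photosystem I genes and in 2 of 12 photosystem II genes, against 10.2% of 27443 nuclear coding genes. The G-box was found in 5, 2 and 3 of these genes, against 6.49% of all, and GATAAG in 4, 4 and 2, against 12.3%. AAAAATCT was found in 3 of these 44 members (6.82%), against 6.69%, and AAATATCT in 1, against 4.79%. In the windows shown above, CAB1 has CCAATC and CAB2 has AAAAATCT, whereas CAB3 and LHCB4.3 hold none of the 5 motifs. LHCB4.1 and LHCB4.2 both have CCAATC. LHCB4.1 also has the G-box, and LHCB4.2 also has GATAAG.

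Because annotated starts differ between sources, the motifs were also counted in the 500 bases before the RefSeq coding start. There the G-box was found in 9 of 20 antenna, 5 of 12 photosystem I and 6 of 12 photosystem II genes, against 9.34% of all coding genes. GATAAG was found in 11, 9 and 5 of them, against 23.5%, and CCAATC in 12, 3 and 4, against 21.2%. AAAAATCT was found in 5, 2 and 2, against 13.2%. AAATATCT was found in 1 antenna gene and in neither photosystem, against 8.27%. A match is a description of the letters and not evidence of binding.

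Other genes of the light reactions gave a mixed picture. The oxygen-evolving proteins, a list chosen after the data were seen, had 3 of 5 genes lower. PSBQ2 fell from 1076 ± 55.2 to 577 ± 10.4 CPM, whereas PSBP1 did not pass the test (edgeR adjusted p = 0.100). The log2 fold change of PSBP1 was -0.28, and -0.37 without 2 dpg replicate 1. Of 16 genes of electron transport and the ATP synthase 8 fell and 3 rose, at a median log2 fold change of -0.30 (-0.0212 under ribosomal protein scaling). Over all tested genes 28.4% fell and 28.3% rose. Without 6 dpg replicate 1 the median of the list was -0.37. Fewer of its genes were then called in each direction, as over all tested genes. A 17th gene of the list, LFNR1, was not in the data. ATPD, the delta subunit of the chloroplast ATP synthase, fell from 1016 ± 1.098 to 474 ± 11.9 CPM. PTOX, the plastid terminal oxidase (IM), rose from 21.1 ± 0.372 to 38.3 ± 1.37 CPM.

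Photoprotection and state transition genes other than members rose in 5 of 11 cases and fell in 3, against 28.3% and 28.4% of all tested genes. Under ribosomal protein scaling 7 rose and 3 fell, against 5268 and 2175 of 16160 tested genes. The median log2 fold change was 0.31, with 0.22 without 6 dpg replicate 1 and 0.40 without 6 dpg replicate 2. Fewer rises were called without either 6 dpg library, as over all tested genes. The early light-induced protein gene ELIP1 fell from 207 ± 29.0 to 15.2 ± 3.77 CPM. STN7, the kinase that phosphorylates LHCII in state transitions, rose from 82.9 ± 10.9 to 212 ± 0.945 CPM. Among 20 genes of assembly, import and repair 10 fell and 4 rose, against the same shares of all genes. Under ribosomal protein scaling 4 fell and 5 rose, against 2175 and 5268 of 16160 tested genes. Without 6 dpg replicate 2 fewer were called in each direction, as over all tested genes, at a median log2 fold change of -0.26. LTD (GDC1), which takes part in the transport of LHC proteins, fell from 34.8 ± 4.15 to 18.4 ± 0.774 CPM. FTSH8, a subunit of the thylakoid repair protease, rose from 92.7 ± 6.07 to 299 ± 34.1 CPM. The assembly genes had a median log2 fold change of -0.25, which turned to 0.0334 under ribosomal protein scaling.

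Regulators of photosynthesis genes were mostly higher at 6 dpg. Of 12 tested, 7 rose and 1 fell, against 28.3% and 28.4% of all tested genes, at a median log2 fold change of 0.84. GLK1, an activator of nuclear photosynthesis genes, rose from 44.7 ± 1.21 to 85.1 ± 8.61 CPM. GUN1, a plastid protein of signalling to the nucleus, fell from 462 ± 8.85 to 290 ± 1.103 CPM, a call lost under ribosomal protein scaling. The largest rise was that of CCA1 (log2 fold change 1.42 ± 0.16), a morning clock factor that binds LHCB1 promoters. The labels give no hour of collection, so for genes with a daily rhythm, LHCB and LHCA genes among them, age and harvest time cannot be told apart.

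**Figure D5:**
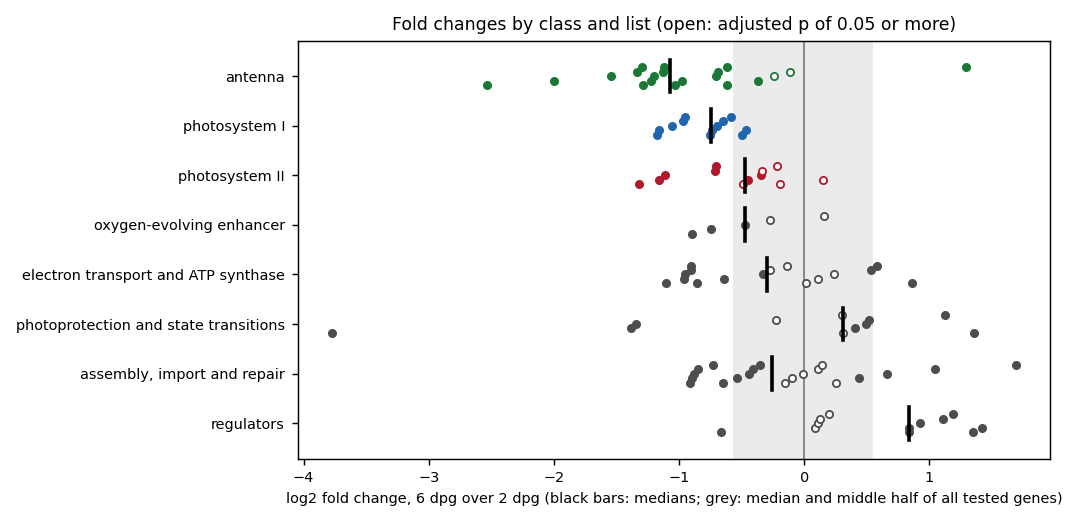
Log2 fold change of each tested gene by class and list, with a black bar at the median and open points for an adjusted p of 0.05 or more; grey shows the median and middle part (between the quartiles) of all tested genes. The members lie to the left (medians -1.08, -0.74 and -0.47), the regulators to the right (0.84).

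Markers of other cell types moved as well, and their part in the fall of the members was not tested. Of all tested genes 28.4% fell and 28.3% rose. The 3 root hair genes and 2 endodermis genes fell, with summed levels of 89.5 to 119 and 94.1 to 117 CPM at 2 dpg and 20.01 to 26.5 and 22.9 to 24.97 CPM at 6 dpg. Of 2 epidermis genes PDF1 fell and ATML1 did not pass the test, and the sum was 473 to 526 CPM, then 188 to 196 CPM. ATML1 was called lower with length-adjusted offsets (log2 fold change -0.51, edgeR adjusted p = 0.00294), and its sign turned under ribosomal protein scaling (0.105). Both guard cell genes rose, from 14.3 to 18.6 CPM in sum to 53.1 to 53.6 CPM, as did the phloem gene SUC2, from 79.4 to 85.9 CPM to 99.5 to 122 CPM (the SUC2 call was lost without 2 dpg replicate 2 and without 6 dpg replicate 2). For the leaf mesophyll GLK1 rose, and CA1, a carbonic anhydrase gene, had 2813 ± 320 and 2318 ± 236 CPM (edgeR adjusted p = 0.12). The log2 fold change of CA1 was -0.28, and -0.39 without 2 dpg replicate 1. The seed reserve genes SESA1 and OLEO1 had too few reads to be tested, and their sum was at most 1.61 CPM in any library.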

How the data were processed

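Messenger RNA of 4 libraries was analysed, 2 per age. The authors' deposited table gives read counts per gene, per the file headers, not normalized. The deposited FPKM, made by the authors per the file headers, served only to recover library totals: a single total, within 0.01%, came from 66.7 to 67.8% of the genes above 200 reads. The rows held make up 79.9 to 81.0% of those totals. The tools named, per the submitters' processing notes, are TopHat2 2.0.12, HTSeq 0.6.1, DESeq 1.18.0, Bowtie2 2.2.3 and CASAVA 1.8, without their roles, and for the genome build the sources used here give none. The library kit named in the labels does not mark strand.

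Counts were fitted with edgeR 4.0.16 in R 4.3.3 (TMM on the totals, a filterByExpr minimum of 10 counts, age as the only term, quasi-likelihood test, Benjamini-Hochberg over 16160 genes). SEs were derived from the fold change and its F statistic. CPM use the totals times the TMM factors; CPM per kilobase divide by the table's length. Alternatives were DESeq2 1.42.0, other scalings (179 cytosolic ribosomal protein genes among them), length-adjusted offsets, other filters, a replicate block and leaving out each library. A count of 3 corresponds to 0.113 to 0.164 CPM, counting error only. The fit was tested on simulated data. Sequences came from RefSeq TAIR10.1 by its own annotation. Members and lists were chosen with earlier results of these data known. Values per library are given, in each class, for the 4 largest falls, for rises, for the 2 highest levels per length and for members with overlapping ages; from other lists, for the largest rise and fall. Correlated deviations between same-numbered libraries were checked and not found.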

Additional observations from a re-analysis of the deposited data

How the results depend on the processing

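The counts of members lower and higher (36 and 1), of each class lower and of all genes called (9153) stayed within 1.5 times their main value in the alternatives run, with these exceptions: ribosomal protein scaling left 7 photosystem I genes lower, and length-adjusted offsets gave 2 members higher. Leaving out each library gave 27 to 38 members lower. Of the 36 members that fell, 26 were called lower in all 13 alternatives. Those losing the call in some were PSAD2, PSAE1, PSAE2, PSAF, PSAK, PSB27, NPQ4, LHCA3, LHCB4.2 and LIL3:1. The class medians of antenna, photosystem I and photosystem II moved beyond the spread of replicates to -0.80, -0.46 and -0.19 under ribosomal protein scaling and to -0.97, -0.50 and -0.33 with length-adjusted offsets. Across the libraries left out in turn, the medians ranged from -1.09 to -1.02, from -0.82 to -0.68 and from -0.71 to -0.34. Signs turned for LHCA5 (0.16), PSBR (0.0686), LHCB2.1 (0.0474) and AT3G63540 (0.11) under ribosomal protein scaling, for LHCA5 (0.0737), PSBR (0.0670) and AT3G63540 (0.16) with length-adjusted offsets, and for LPA19 without 6 dpg replicate 1 (range over the libraries left out -0.0390 to 0.306). Fold changes rose with gene length (Spearman 0.231 across genes). The cause of these changes was not tested. Same-numbered libraries did not deviate together (correlation -0.0265). With a replicate block 34 members fell and 1 rose, the calls for LHCB4.2 and NPQ4 were lost, and 9099 genes were called. With 1 library left at an age, that library is assumed to vary like the others. Without either 6 dpg library fewer genes were called over the whole set, so a call lost there need not mean a changed estimate. Every test is limited by having 2 libraries per age.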
